A study of Mus musculus with 605 samples.

Results

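Ucp2 and Fabp5 are 2 of the 31002 genes listed for single cells sorted from mouse dorsal skin, and their levels are described here in each of the 7 cell groups. Both genes were chosen by their bulge values: on an earlier pass over these data they were among the genes with the largest difference between mutant and wild-type bulge cells at postnatal day 56 (P56). Every bulge level and difference given for them below is therefore a description, and it was not tested. Their values in melanocytes and myeloid cells, and the genes that accompanied them from cell to cell, did not enter that choice.

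Cells came from a model of hairy nevus, the mouse Tyr-NrasQ61K, in which the tyrosinase promoter drives an activated Nras in melanocytes, so the transgene is aimed at melanocytes and not at bulge or myeloid cells. Bulge cells are the stem cells of the hair follicle, and the study's methods isolate them by the K14-H2B-GFP reporter, CD34 and low P-cadherin. They came from wild-type (WT) skin at P30, when follicles grow (anagen), from WT skin at P56, when they rest (telogen), and from mutant (Mut) skin at P56. The paper reports both growing and resting follicles in Mut skin, and the follicle phase behind each Mut cell is not given. Melanocytes and myeloid cells came from WT and Mut skin at P56, and the sources used here do not state their sort. No animal is named for any cell, which makes each group 1 sample whose cells are not replicates. Genotype and age cannot be told apart from the capture plate that held each group. No p-value is given, the SD and quartiles describe the spread over cells, and shares carry 95% intervals (exact, Clopper-Pearson) for counting error alone.

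Of 605 cells 566 passed the filters, between 72 and 89 a group. Marker genes matched the labels for 84 of 84 cells of the WT P30 bulge, 81 of 83 of the WT P56 bulge, 89 of 89 of the Mut bulge, 77 of 81 WT and 80 of 84 Mut melanocytes, 69 of 73 WT and 62 of 72 Mut myeloid cells. Cd34, whose protein was used to sort bulge cells, was listed at 1 TPM (the length-normalised transcript unit of the tables) or more in 10 of the WT P30, 8 of the WT P56 and 41 of the Mut bulge cells. The median number of genes detected per cell was 3191.5 in the WT P30 bulge, 4271 in the WT P56 bulge and 4425 in the Mut bulge, and ranged from 2233 to 2946 elsewhere. Read depth cannot be had from TPM, and the depth behind each value is unknown.

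Ucp2 encodes uncoupling protein 2, a carrier of the inner mitochondrial membrane. It moves metabolites such as malate, oxaloacetate and aspartate out of the mitochondrion in exchange for phosphate, and it is known for its links to fatty acid and glutamine use and to the production of reactive oxygen species. Fabp5 encodes the epidermal fatty acid binding protein, a small cytosolic protein that carries long-chain fatty acids and retinoic acid and can hand them to nuclear receptors such as PPAR delta. In skin it is best known from keratinocytes that differentiate or are activated.

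On the GRCm38 build, Ucp2 (ENSMUSG00000033685) lies on the plus strand at chr7:100493337-100502020, just downstream of its relative Ucp3, and Fabp5 (ENSMUSG00000027533) lies on the plus strand at chr3:10012548-10016607. The longest coding transcript of Ucp2 has 8 exons, and the coding transcript of Fabp5 has 4 exons. The stretch before the annotated start of Ucp2 is shown because it precedes a gene that ranked among the most different between bulge plates. It runs from chr7:100493108 to 100493336 on the plus strand (GRCm38.p6, RefSeq promoter window), 229 bases written 5′ to 3′, and the capitals mark the match to the Sp1 motif GGGCGG, read on the opposite strand.
Ucp2 promoter: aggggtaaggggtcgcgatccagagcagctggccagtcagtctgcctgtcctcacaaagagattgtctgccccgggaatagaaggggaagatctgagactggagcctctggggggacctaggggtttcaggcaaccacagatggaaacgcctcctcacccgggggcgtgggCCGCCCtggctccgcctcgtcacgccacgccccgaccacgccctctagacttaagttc
GGGCGG matched the whole 300-base window 2 times, once in the part printed, and it is found in 35.7% of all 32851 promoter windows. On either strand the window held no match to the AP-1 motif TGANTCA (in 7.81% of all windows), to the CRE motif TGACGTCA (1.79%), to the E-box CACGTG (7.15%), to the E2F motif TTTCCCGC (1.07%), to the DR1 element of nuclear receptors (0.0396%), to the TATA box TATAAA (13.6%) or to CCAAT (37.4%).

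Some reads of each gene could also belong elsewhere. Of the 75-base windows of Ucp2 transcripts, 231 of 4477 (5.16%) also lie in transcripts of Dnajb13, an overlapping gene on the opposite strand, and the library kit keeps no strand. Dnajb13 itself was listed at 1 TPM or more in 21 of the 566 cells, with a mean of 0.595 TPM. Of the windows of Fabp5, 110 of 913 (12.05%) match the pseudogenes Gm6166 or Gm14328, neither of which has a row in the tables, so a small part of the Fabp5 signal is uncertain in this way.

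Ucp2 was detected in nearly every bulge cell of each plate, and what differed was its amount. In the WT P30 bulge it ranged from 0 to 17070 TPM with a median of 2168, and 98.8% of 84 cells (interval 93.5 to 99.97%) had it at 1 TPM or more. In the WT P56 bulge the median was 850 and the highest cell 7771 TPM, with 96.4% of 83 cells (89.8 to 99.3%) detecting it. In the Mut bulge the median was 9672 and the highest cell 22068 TPM, with 98.9% of 89 cells detecting it. The middle 50% of cells lay between 1221 and 5851 TPM in the WT P30 bulge, between 389 and 1339 in the WT P56 bulge and between 5733 and 12337 in the Mut bulge, so the WT P56 and Mut ranges did not overlap. The mean ranked 22nd of all genes in the WT P30 bulge, 154th in the WT P56 bulge and 6th in the Mut bulge, where a single transcript took close to 1% of all TPM in the mean cell (9075 TPM).

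Fabp5 was listed either at 0 or well above it. Only 2 of its values in the 566 cells lay above 0 and below 10 TPM, and whether a 0 means no transcript or 1 that was not captured was not tested. It was detected in 60.7% of WT P30 bulge cells (49.5 to 71.2%), in 28.9% of WT P56 bulge cells (19.5 to 39.9%) and in 78.7% of Mut bulge cells (68.7 to 86.6%). Cells at 1000 TPM or more numbered 30 of 84 in the WT P30 bulge, 0 of 83 in the WT P56 bulge and 40 of 89 in the Mut bulge. The values ran from 0 to 13581 TPM with a median of 125 in the WT P30 bulge, from 0 to 765 with a median of 0 in the WT P56 bulge, and from 0 to 10437 with a median of 837 in the Mut bulge. In the cells that detected it, mean Fabp5 was 2632 TPM in the WT P30 bulge, 180 in the WT P56 bulge and 2525 in the Mut bulge. The filters touched the WT P56 value: with all 92 cells of that plate the mean was 150 TPM in place of 52.01.

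**Figure D1:**
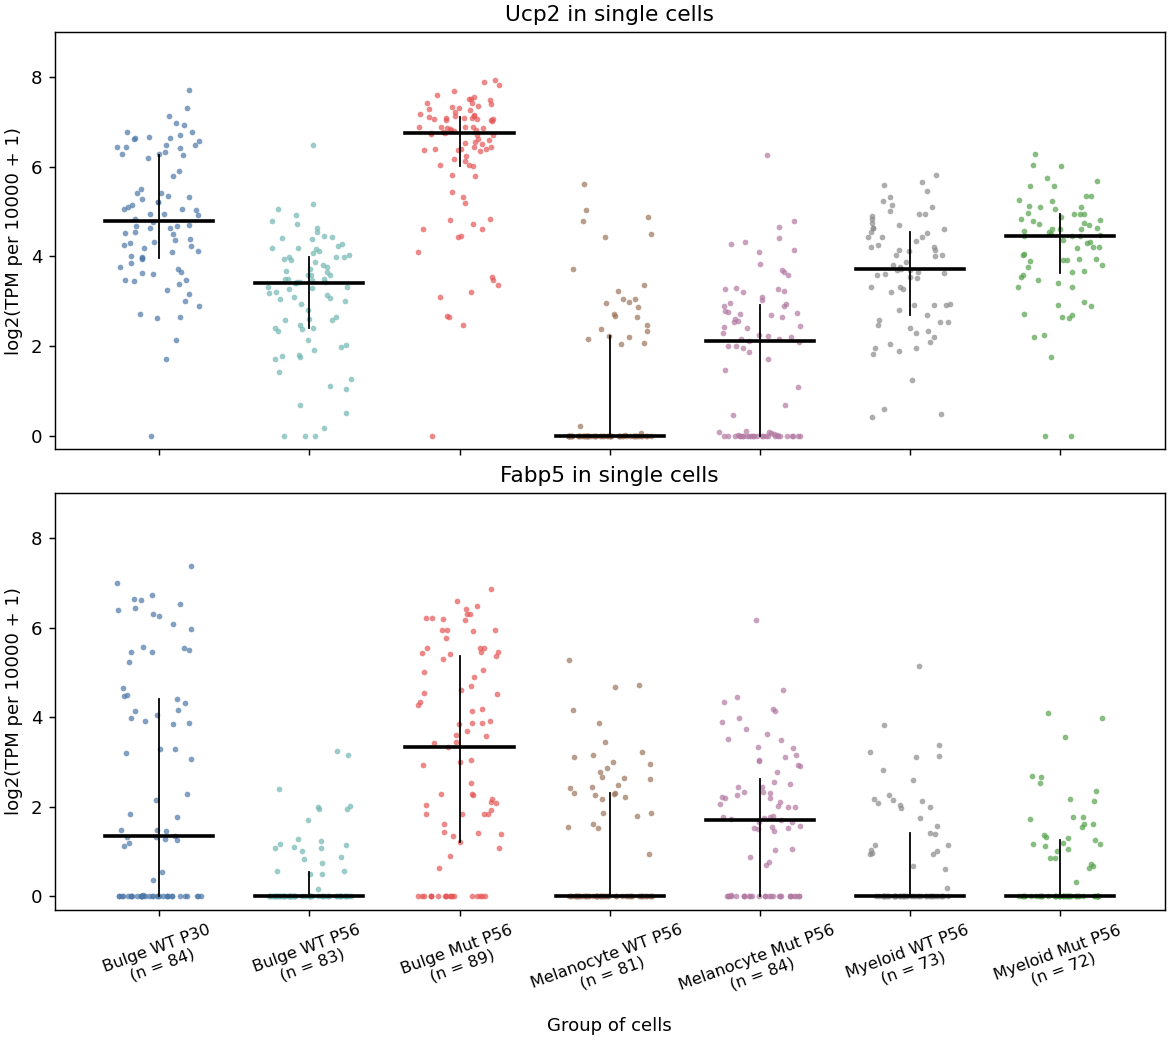
Ucp2 (top) and Fabp5 (bottom) in each kept cell of the 7 groups, as log2 of scaled TPM plus 1. A bar marks the median and a line spans the quartiles. Ucp2 sits highest in the Mut bulge (median 9672 TPM) and forms single clouds in the bulge, whereas Fabp5 splits each plate into cells at 0 and cells well above it.

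Outside the bulge, Ucp2 was highest in myeloid cells, and Fabp5 was higher in melanocytes than in myeloid cells by mean TPM. All 73 WT myeloid cells detected Ucp2 (interval from 95.1%), from 27.7 to 4847 TPM with a median of 1103, and 97.2% of 72 Mut myeloid cells did, with a median of 1781 and a highest cell of 6712 TPM. In melanocytes Ucp2 was detected in 33.3% of 81 WT cells (23.2 to 44.7%) and in 67.9% of 84 Mut cells (56.8 to 77.6%), with medians of 0 and 303 TPM and highest cells of 4173 and 6949 TPM. Fabp5 was detected in 39.5% of WT melanocytes (28.8 to 50.99%), 67.9% of Mut melanocytes, 41.1% of WT myeloid cells (29.7 to 53.2%) and 43.1% of Mut myeloid cells (31.4 to 55.3%). Its median was 207 TPM in Mut melanocytes and 0 in the other 3 groups, whose highest cells held 3300 (WT melanocytes), 2908 (WT myeloid) and 1418 TPM (Mut myeloid). By mean TPM the order for Ucp2 was Mut bulge 9075, WT P30 bulge 3535, Mut myeloid 1943, WT myeloid 1382, WT P56 bulge 1007, Mut melanocytes 494 and WT melanocytes 309. For Fabp5 the order was Mut bulge 1986, WT P30 bulge 1598, Mut melanocytes 435, WT melanocytes 264, WT myeloid 160, Mut myeloid 119 and WT P56 bulge 52.01. In both orders the quartile ranges of each neighbouring pair overlapped. The resting WT bulge thus had the lowest Fabp5 of all groups, whereas its Ucp2 lay above that of both melanocyte groups.

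Most relatives of each gene were low in the bulge. Ucp1 and Ucp3, the other classical uncoupling proteins, had mean levels of at most 1.61 TPM in any group. Slc25a5, the adenine nucleotide translocase 2 and the most abundant of the listed carriers in the bulge, had 1094 TPM in the WT P30 bulge, 705 in the WT P56 bulge and 1812 in the Mut bulge, and so lay below Ucp2 in all 3. In melanocytes it lay above Ucp2, with 482 TPM in WT and 555 TPM in Mut cells. Among binding proteins related to Fabp5, Fabp4 had 21.5, 10.2 and 2.79 TPM in the WT P30, WT P56 and Mut bulge. Fabp7, the brain form, had 62.1 TPM in WT and 94.6 in Mut melanocytes and 0 in the bulge and myeloid plates. Fabp1, Fabp9, Fabp12 and Pmp2 were listed at 0 in every group. Of the 16 listed mitochondrial carriers related to Ucp2, 9 were measured in the comparison of Mut with WT P56 bulge and 2 of them were higher by 0.5 or more, where 3.99% of all genes tested were. Fabp5 had 1 measured relative in that comparison, and it did not reach 0.5.

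Group differences were taken between mean log2 levels, with TPM scaled to 10000 per cell and a pseudocount of 1, so folds of low values are understated. The median difference of all genes was at most 0.0915 in the 5 comparisons. In Mut minus WT P56 bulge Ucp2 differed by 3.08, from a mean of 3.13 ± 1.29 (SD over 83 cells) to 6.21 ± 1.48 (89 cells), and the ratio of mean TPM was 9.02. Fabp5 differed by 2.71, from 0.39 ± 0.75 to 3.10 ± 2.27, and the ratio of mean TPM was 38.2. The WT P56 mean behind that ratio, 52.01 TPM, was higher without the cell filters, as given above. Its 5 highest cells held 55.3% of the sum, so the size of the ratio is uncertain. Both members were past 0.5 in this contrast, in which 3.99% of 7561 genes were higher by at least 0.5 and 2.86% lower. They ranked 2nd and 3rd, which is how they were chosen, and nothing is read from it. A Mut cell was above a WT P56 cell in 92.6% of cell pairs for Ucp2 and in 76.4% for Fabp5.

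Both members differed less between the Mut and WT P30 bulge than between the Mut and WT P56 bulge. They were chosen on the second contrast, so nothing is read from this order. In Mut minus WT P30 bulge the difference was 1.34 for Ucp2 and 0.76 for Fabp5, in a contrast where 6.24% of 6911 genes were higher by 0.5 or more and 2.89% lower. Ucp2 ranked 27th and Fabp5 152nd. For Fabp5 the difference lay in the share of cells that had it: over detecting cells alone it was 0.09. It also moved with the number of genes detected per cell, since with 28 pairs of cells matched on that number to within 5% it was -0.56 for Fabp5 and 0.90 for Ucp2. In WT P56 minus P30 bulge Ucp2 differed by -1.73 and Fabp5 by -1.95, near the bottom of 6777 genes (ranks 6772 and 6774), of which 4.71% were higher and 3.1% lower by 0.5 or more. These contrasts share their bulge cells, so they are not separate evidence.

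In melanocytes both genes were listed in more Mut cells, but at no higher amount in the cells that had them. In Mut minus WT melanocytes Ucp2 differed by 0.77 and Fabp5 by 0.60, from 0.995 ± 1.60 to 1.76 ± 1.61 and from 1.08 ± 1.47 to 1.68 ± 1.497 (81 and 84 cells). Among detecting cells the differences were -0.39 and -0.25. Both members were past 0.5 where 4.97% of 4607 genes were higher and 2.54% lower by that much. Genes detected per cell moved the same way, with medians of 2233 and 2873, and with 50 pairs of cells matched on that number the differences were 0.55 for Ucp2 and 0.17 for Fabp5. The part of detection in the result was not tested further. Transcripts of other lineages also went with Ucp2 here. The 8 WT melanocyte-plate cells with Krt14, a basal keratin, had a mean of 1472 TPM of Ucp2 against 182 in the other 73. The 28 Mut cells with Krt14 had 754.7 against 364 in the other 56. Over the WT plate Ucp2 had a rho of 0.45 with the mean level of myeloid markers and 0.24 with that of keratinocyte markers. In the Mut plate these values were 0.15 and 0.27. Over the cells whose markers were those of melanocytes, Ucp2 had means of 193 TPM in 77 WT and 396 TPM in 80 Mut cells, and Fabp5 had 208 and 346 TPM.

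In myeloid cells the Mut minus WT difference was 0.56 for Ucp2 and -0.08 for Fabp5, from 3.61 ± 1.26 to 4.17 ± 1.195 and from 0.81 ± 1.19 to 0.73 ± 1.04 (73 and 72 cells). Of 4497 genes 0.978% were higher and 1.22% lower by 0.5 or more, and Ucp2 ranked 23rd and Fabp5 3490th. Ucp2 went with the kind of myeloid cell. The 23 WT cells with C1qa, a complement gene of resident macrophages, had a mean of 922 TPM and the other 50 had 1594 TPM, and in Mut skin the 9 cells with C1qa had 1413 and the other 63 had 2018 TPM. The Mut plate held fewer cells with C1qa, and it held 10 cells with leading T or NK cell markers where the WT plate held 4. The part of the kinds of cell in the Mut minus WT difference was not tested. Fabp5 had 272 TPM in WT cells with C1qa and 108 in those without, and the order was the reverse in Mut cells, with 84.9 and 124 TPM.

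Of the 3 bulge plates, the resting WT bulge was the one in which Ucp2 and Fabp5 had the fewest accompanying genes. Correlations between genes were Spearman's rho over the cells of 1 plate, for genes at 1 TPM or more in at least 25% of its cells. They are descriptions, since cells of a plate share its handling and differ in the number of genes detected. At WT P30 266 of 4454 genes (5.97%) had a rho of 0.3 or more with Ucp2 and 5.01% had -0.3 or less. The same shares for Fabp5 were 7.27% and 6.8%. In the WT P56 bulge they were 1.45% and 0.241% of 6637 genes for Ucp2 and 1.04% and 0.301% for Fabp5. Fabp5 was at 0 in 59 of the 83 cells of that plate, so most of its ranks were tied. Ucp2 also had its lowest bulge median there, and both members were chosen on a contrast in which that plate was the lower side. The part of these low levels in the small shares was not tested. Mut bulge shares were 6.78% and 2.54% of 6651 genes for Ucp2 and 10.3% and 2.66% for Fabp5. Fabp5 itself had a rho of 0.42 with the number of genes detected in the Mut bulge, and Ucp2 had 0.10.

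In growing WT follicles the genes closest to Ucp2 were Cmah (rho 0.76), the hydroxylase that makes N-glycolylneuraminic acid, Il11ra1 (0.72), the interleukin 11 receptor, and Tnc (0.69), the matrix protein tenascin C. Nrep (0.67), Gja1 (0.66), which encodes connexin 43, Atp1b3 (0.65), a sodium pump subunit, Krt17 (0.64) and Cald1 (0.64) followed. Lowest were Anxa1 (-0.65), Tmem45a (-0.64), Ly6d (-0.62) and the metallothionein Mt2 (-0.62). In the Mut bulge the closest genes were Cbs (0.69), cystathionine beta-synthase, the chemokine Cxcl12 (0.69), the matrix genes Bgn (0.68) and Sparc (0.67), Pi15 (0.68), Gnmt (0.66), which encodes glycine N-methyltransferase, Col18a1 (0.66) and Marcksl1 (0.66). Nr1d1 (-0.61), the clock repressor REV-ERB alpha, Mt2 (-0.60) and Plbd1 (-0.57) were among the lowest. In the WT P56 bulge no gene went beyond Ccnd2 (0.46), cyclin D2, followed by Borcs7 (0.42), Cpsf3l (0.40) and the cytokine Il33 (0.40), with Id2 (-0.42) lowest.

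The genes beside Ucp2 were shared between the WT P30 and Mut bulge. Of the 50 closest genes in each plate 14 were in both lists: Atp1b3, Cryab, Ctsb, Cyp2s1, Gja1, Gstm5, Il11ra1, Marcksl1, Mfge8, Pdlim7, Pi15, Sox9, Tmem176b and Tnc. Of the WT P30 list 47 genes were measured in the Mut bulge, where their median rho with Ucp2 was 0.47 and 43 had 0.3 or more. Of the Mut list 36 were measured in the WT P30 bulge, with a median of 0.47 and 26 at 0.3 or more. In the WT P56 bulge the medians of these lists were -0.05 and -0.04, and none of their genes reached 0.3. Across 4195 genes measured in both plates, rho with Ucp2 in the WT P30 bulge and rho with Ucp2 in the Mut bulge had a rank correlation of 0.46. Sox9, a transcription factor of bulge stem cells, was in both lists.

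**Figure D2:**
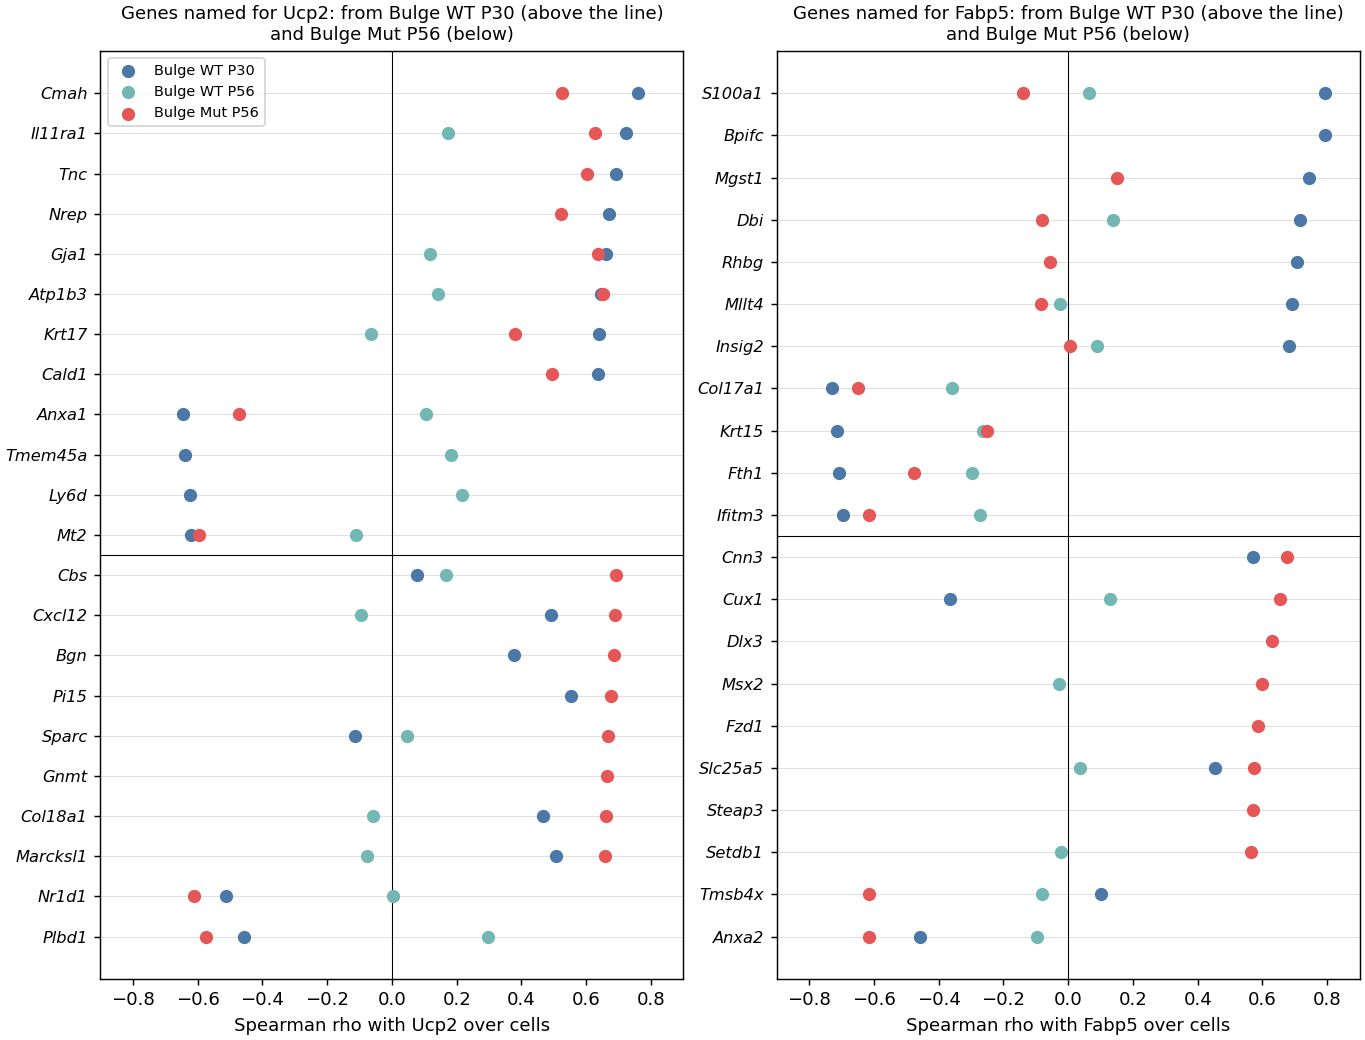
Spearman's rho over cells of Ucp2 (left) and Fabp5 (right) with most of the genes named for the WT P30 bulge (above the line) and the Mut bulge (below), with 1 point for each bulge plate and no point where the gene was in fewer than 25% of cells. For Ucp2 the WT P30 and Mut points lie on the same side of 0 for most genes, while genes high with Fabp5 in the WT P30 bulge (S100a1 at 0.79) lie near 0 in the Mut bulge.

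Fabp5 had different company in each plate. In the WT P30 bulge it went with S100a1 (0.79), a calcium binding protein, Bpifc (0.79), Mgst1 (0.74), a membrane glutathione transferase, Dbi (0.72), the acyl-CoA binding protein, the ammonium transporter Rhbg (0.71), Mllt4 (0.69) and Insig2 (0.68), which restrains sterol synthesis. It was low where Col17a1 (-0.73), a hemidesmosomal collagen, Krt15 (-0.71), a keratin of the bulge, Fth1 (-0.71) and Ifitm3 (-0.69) were high. In the Mut bulge the closest genes were Cnn3 (0.68), the homeobox genes Cux1 (0.65), Dlx3 (0.63) and Msx2 (0.60), which act in hair follicle and epidermal differentiation, the Wnt receptor Fzd1 (0.59), Slc25a5 (0.57), Steap3 (0.57) and the histone methyltransferase Setdb1 (0.56). Of the 50 closest genes 3 were shared by these plates (Cnn3, Lgr4 and Psmd7), and the WT P30 list had a median rho of 0.02 in the Mut bulge. The genes low beside Fabp5 were shared more often: 62 genes were at -0.3 or less in both plates, 30.1% of those of the WT P30 bulge and 36.9% of those of the Mut bulge, whereas 23 genes were at 0.3 or more in both, 7.67% and 5.30%. Col17a1 (-0.65) and Ifitm3 (-0.61) stayed among the lowest in the Mut bulge, with Tmsb4x (-0.62) and Anxa2 (-0.62). In the WT P56 bulge Rnf185 (0.42), Pex19 (0.41) and Sod2 (0.41) were highest and Krt14 (-0.48) was lowest.

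Krt15 divided the WT P30 bulge by its Fabp5. All 19 cells without Krt15 detected Fabp5, with a mean of 4460 TPM and a median of 3238, while 49.2% of the 65 cells with Krt15 did, with a mean of 762 and a median of 0. Ucp2 had means of 5608 TPM without and 2930 with Krt15. Of the Mut bulge cells 85 of 89 had Krt15 and its rho with Fabp5 was -0.25, and in the WT P56 bulge 82 of 83 cells had it and rho was -0.26.

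**Figure D3:**
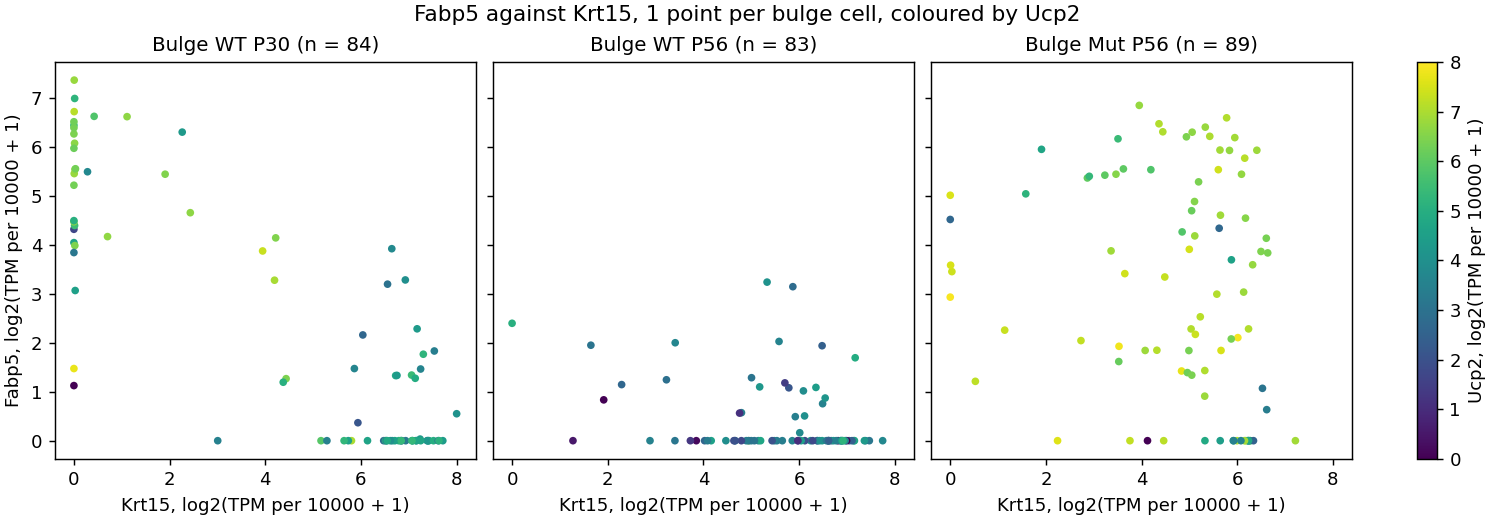
Fabp5 (vertical axis) against Krt15 (horizontal axis) in each kept cell of the 3 bulge plates, both as log2 of scaled TPM plus 1, with colour for Ucp2 on the same scale. In the WT P30 bulge high Fabp5 and high Krt15 rarely fall in the same cell (rho -0.71), and in the Mut bulge they often do (rho -0.25).

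Ucp2 and Fabp5 had a clear rank correlation in growing WT follicles and almost none in the Mut bulge. Mut bulge cells that detected Fabp5 nevertheless had more Ucp2. In the WT P30 bulge their rho was 0.47, and median Ucp2 was 3369 TPM in the 51 cells with Fabp5 and 1783 TPM in the 33 without. The correlation was 0.07 in the WT P56 bulge and 0.08 in the Mut bulge, where 70 of 89 cells had both. In the Mut bulge the 19 cells without Fabp5 had a median of 2392 TPM of Ucp2 and the 70 with it had 10017 TPM, but over the cells with both genes rho was -0.18. In melanocytes and myeloid cells rho lay between -0.04 and 0.14. The lists of the 50 closest genes of each member shared 23 in the WT P30 bulge, among them Cmah, Tnc, Gja1, Krt17 and Sox9, and 0 in the WT P56 and Mut bulge. Krt17, Sox9 and Cmah parted in the Mut bulge: Krt17 had a rho of 0.38 with Ucp2 and -0.50 with Fabp5, Sox9 0.54 and -0.31, and Cmah 0.52 and -0.34. Sfrp1, a secreted Wnt inhibitor, which was not on the shared list, had 0.51 and -0.36 there. The reverse was seen for Mt2 (-0.60 with Ucp2, 0.36 with Fabp5), Mt1 (-0.53 and 0.42) and Lgr6 (-0.32 and 0.45), a stem cell marker of the isthmus above the bulge.

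**Figure D4:**
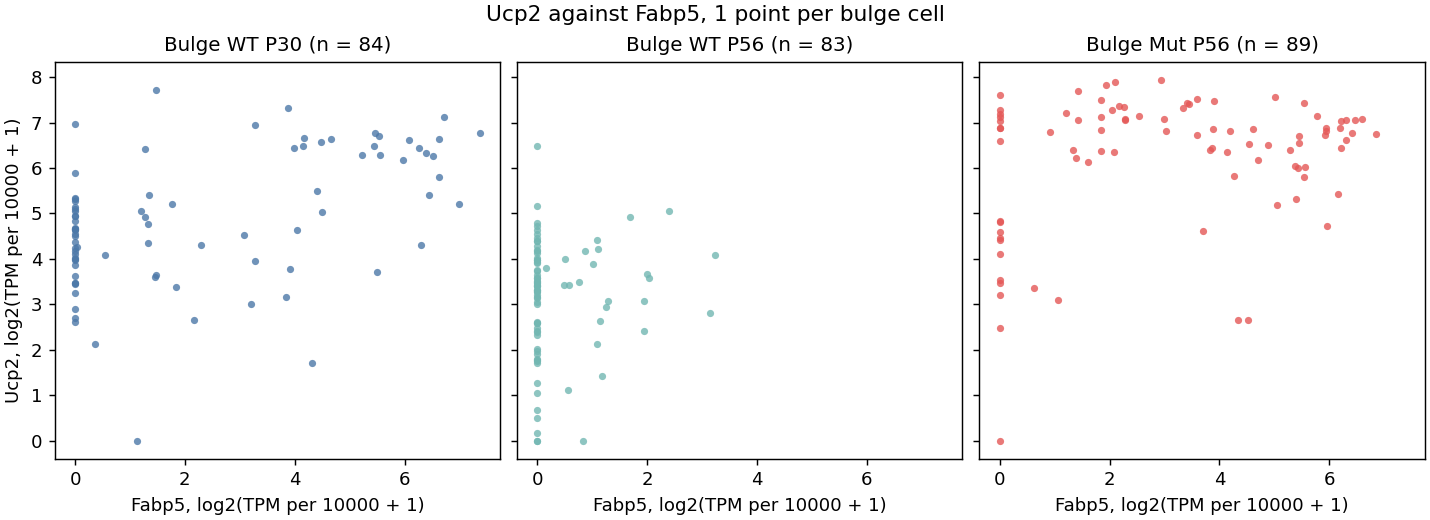
Ucp2 (vertical axis) against Fabp5 (horizontal axis) in each kept cell of the 3 bulge plates, both as log2 of scaled TPM plus 1. The genes are high together in the WT P30 bulge (rho 0.47), and in the Mut bulge (rho 0.08) cells with Fabp5 have a median Ucp2 of 10017 TPM and those without it 2392 TPM.

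Lists of pathway and cell-state genes, compiled with earlier results of these data known, were set beside each member, and the shares of all genes given above are their background. Over all genes the median rho lay between -0.01 and 0.04 with Ucp2 and between 0.02 and 0.09 with Fabp5 in the 3 bulge plates. Among metabolic genes, fatty acid oxidation had 5 of 16 measured genes at 0.3 or more with Ucp2 in the Mut bulge and none at -0.3 or less (median 0.23): Hadha (0.44), Hadh (0.41), Acaa2 (0.37), Decr1 (0.33) and Echs1 (0.31). With Fabp5 in the same cells none of the 16 reached 0.3 in either direction. Among WT P30 bulge cells 4 of 15 reached 0.3 with each member, and Acaa2, the mitochondrial thiolase, had 0.46 with Ucp2 and 0.50 with Fabp5. Of 9 measured PPAR targets 4 reached 0.3 with Ucp2 in the Mut bulge, among them the lipase inhibitor Angptl4 (0.64), Acot1 (0.41) and Acaa2. Of 14 genes of glutamine and malate-aspartate metabolism 4 did, of which 3 encode parts of amino acid transporters, Slc3a2 (0.58), Slc7a8 (0.54) and Slc1a4 (0.44), and the other was malate dehydrogenase Mdh2 (0.35). With Fabp5 3 of the 14 did. Among 11 measured in the WT P30 bulge none reached 0.3 with Ucp2, and 2 were at -0.3 or less. Antioxidant genes were divided in the Mut bulge, with Gsr (0.58), Gclm (0.48), Cat (0.43), Gclc (0.35) and Sod1 (0.32) high beside Ucp2 and Gpx1 (-0.35) and Prdx6 (-0.33) low. With Fabp5 3 of the 15 measured there reached 0.3. In the WT P30 bulge 1 of 13 reached 0.3 with Ucp2 and 2 were at -0.3 or less. Of 8 measured genes of fatty acid uptake and activation in the Mut bulge, 1 reached 0.3 with Ucp2 and 1 reached -0.3. With Fabp5 none of them reached 0.3 in either direction (median -0.15). In the WT P30 bulge 3 of 5 reached 0.3 with Ucp2 and 2 with Fabp5. Dbi, a gene of this list, had 0.56 with Ucp2 and 0.72 with Fabp5 in the WT P30 bulge, and 0.31 and -0.08 in the Mut bulge. Of 11 measured genes of fatty acid synthesis and elongation in the Mut bulge, 2 reached 0.3 with Ucp2 and 1 reached -0.3. With Fabp5 1 of them reached 0.3 and none -0.3. The desaturase Scd1 had 0.51 with Fabp5 and -0.26 with Ucp2 in the Mut bulge. The PPAR and retinoid receptors themselves had no member at 0.3 in either direction with either gene in any bulge plate.

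Genes of bulge identity were also set beside both members. Of the 5 outer bulge genes Col18a1 (0.66), Vdr (0.49) and Krt17 (0.38) were at 0.3 or more with Ucp2 in the Mut bulge, whereas with Fabp5 none was and Krt17 was at -0.50. Among WT P30 bulge cells 3 of 5 reached 0.3 with Ucp2 and 4 of 5 with Fabp5, while the inner bulge genes Krt80 and Chit1 were low beside both members, at -0.68 and -0.56 with Fabp5 and at -0.51 and -0.39 with Ucp2. Of 9 measured bulge stem cell genes 5 were at 0.3 or more with Ucp2 in the Mut bulge: Lgr5 (0.56), Sox9 (0.54), Cd34 (0.51), Nfib (0.44) and Tcf7l1 (0.37). In growing WT follicles the list was divided. Of 5 measured genes 2 were at 0.3 or more and 2 at -0.3 or less with Ucp2 (median -0.25). With Fabp5 1 was at 0.3 or more and 3 at -0.3 or less (median -0.47). Sox9 was high beside both there, at 0.61 with Ucp2 and 0.62 with Fabp5. The 41 Mut cells with Cd34 had a mean of 11821 TPM of Ucp2 and the other 48 had 6730 TPM, and their Fabp5 means were 1499 and 2403 TPM. Connexin genes went with Ucp2 in the Mut bulge, with Gja1 at 0.64, Gjb6 at 0.54 and Gjb2 at 0.47, and with Fabp5 none of the 4 reached 0.3. Keratinocyte markers were low beside Fabp5 there, 7 of 10 at -0.3 or less (median -0.34), including Krt14 (-0.54) and Krt5 (-0.37). Krt14 and Krt5 were also low beside it in the WT P56 bulge (-0.48 and -0.39). In the WT P30 bulge the list was divided beside Fabp5, with 2 of 10 at 0.3 or more and 3 at -0.3 or less. Of 3 measured markers of differentiating keratinocytes in the Mut bulge, none reached 0.3 with Fabp5 and 1 was at -0.3 or less. Of 5 measured in the WT P30 bulge, 2 were at 0.3 or more with Fabp5 and 1 at -0.3 or less.

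**Figure D5:**
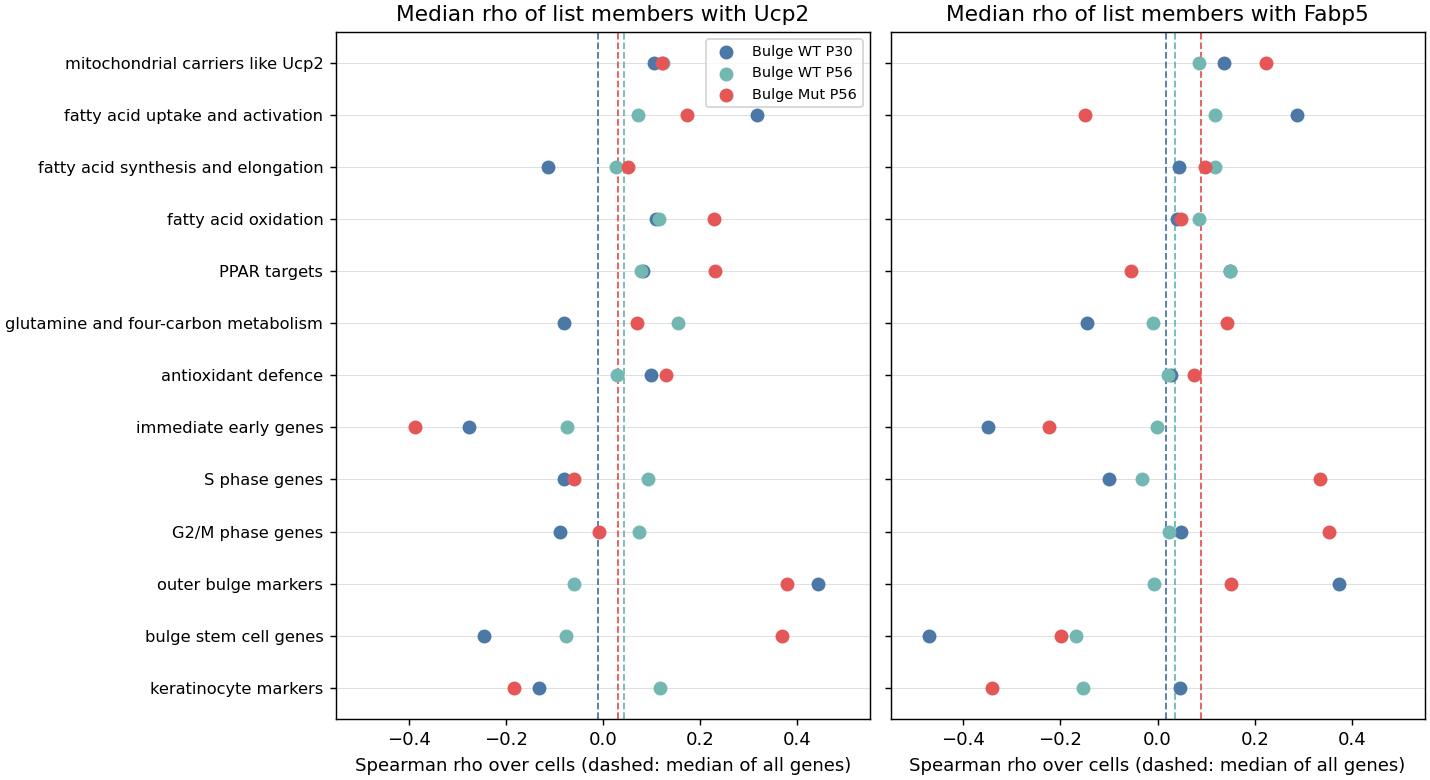
Median rho of each gene list with Ucp2 and with Fabp5 in the 3 bulge plates, for lists with at least 5 measured genes in each, with dashed lines at the median of all genes. Immediate early genes are low beside Ucp2 in the Mut bulge (median -0.39), and S phase and G2/M genes are high beside Fabp5 there (0.34 and 0.35) and near 0 beside Ucp2.

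Cell cycle genes went with Fabp5 in the Mut bulge. Of 30 measured S phase genes 18 were at 0.3 or more (median 0.34) and of 16 G2/M genes 9 were (median 0.35), among them the helicase Atad2 (0.48), the ribonucleotide reductase genes Rrm1 (0.45) and Rrm2 (0.44) and Cdk1 (0.42). Given the number of genes detected, the medians were 0.16 and 0.19. With Ucp2 no S phase gene reached 0.3 in either direction (median -0.06). The 27 Mut cells with Cdk1, the mitotic kinase, had a mean of 3602 TPM of Fabp5 with 92.6% detecting it, and the other 62 had 1283 TPM with 72.6%. Ucp2 had 8917 and 9144 TPM in the same cells.

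Immediate early genes, which cells switch on within minutes of stimulation or of tissue dissociation, were low where the members were high. In the Mut bulge 15 of 18 measured genes were at -0.3 or less with Ucp2, such as Ppp1r15a (-0.52), Nr4a1 (-0.48) and Jun (-0.42), and 6 of 18 with Fabp5. Among WT P30 bulge cells 9 of 21 were with Ucp2 and 11 of 21 with Fabp5, and in the WT P56 bulge 0 of 21 with either. Their summed level had medians of 7581 TPM in the WT P30 bulge, 24319 in the WT P56 bulge and 1236 in the Mut bulge. This order is the reverse of the members', but they were chosen by bulge levels, so nothing is read from it. Elsewhere the medians were 5596 (WT melanocytes), 7699 (Mut melanocytes), 4588 (WT myeloid) and 3708 TPM (Mut myeloid). Ucp2 had a lower mean in each of these groups than in the WT P30 bulge. They are other cell types, so nothing is read from this either. Within the Mut bulge the 31 cells without Fos had a mean of 10937 TPM of Ucp2 and the 58 with Fos had 8080 TPM. At WT P30 the 11 without Fos had 6538 and the 73 with it 3083 TPM. In the WT P56 bulge 82 cells had Fos and 1 did not, so the same split could not be made there. The part of handling before lysis in the group differences was not tested.

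Outside the bulge few of these relations were seen. In WT myeloid cells the genes closest to Ucp2 were Lsp1 (0.61), a leukocyte actin binding protein, Capzb (0.51) and Eef1a1 (0.49), with Ccl7 (-0.45) and Hmox1 (-0.44), heme oxygenase, low. In Mut myeloid cells Actb (0.60) and Cnn2 (0.55) were among the closest, and Bloc1s2 was among the named genes of both plates (0.49 and 0.52). For Fabp5 the highest values were 0.53 (Rnf115) in WT and 0.47 (Ttpal) in Mut myeloid cells. In melanocytes no gene chosen by the same rule went beyond 0.45 with Ucp2 (Tmem176b, WT) or 0.43 with Fabp5 (Ctdsp1, WT).

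Over the means of the 7 groups, the genes whose levels followed Ucp2 most closely among 8074 genes were Setd8 and Plk4 (Pearson's r 0.98 each), Hprt (0.97), Psma7 (0.97) and Tomm22 (0.96). Those nearest to Fabp5 were Tmx1 (0.97), Snhg6 (0.96), Krt75 (0.96), Timm8b (0.95) and Slc39a6 (0.95), and Ucp2 with Fabp5 had 0.58. With 7 points, 3 of them bulge plates, the names describe these groups only. Setd8 and Plk4 were also low throughout, with their highest means, 16.9 and 17.4 TPM, in the Mut bulge.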

How the data were processed

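Single cells were captured on Fluidigm C1 chips, amplified with a SMARTer kit that keeps no strand, and sequenced as 75-base paired reads. The authors aligned reads to GRCm38 with STAR (version 2.4.2), and RSEM gave gene levels on a GENCODE annotation. The deposited tables hold TPM, in which a cell does not reach the full total because not every gene is listed, and no counts, so depth and the number of molecules are unknown. The methods name FPKM as the unit, and the column totals fit TPM.

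Genes and lists were chosen with earlier results of these data known. Cells were kept, after the methods, with a total of at least 750000 TPM, at most 20% mitochondrial TPM, and 2000 to 7000 genes in the bulge or at least 1000 elsewhere; 39 cells were left out. Identifiers sharing a symbol (38 symbols) were averaged, and 27 symbols turned into dates were restored from another table. TPM were divided by the cell total, multiplied by 10000 and taken as log2 with a pseudocount of 1. A gene was detected at 1 TPM. Median totals of kept cells were 808409 to 911162 TPM over groups. A total of 1 column matched no sample and was not used. Named genes were the 8 with the highest and 4 with the lowest Spearman's rho per member and plate among genes in at least 25% of cells (without ribosomal protein, predicted, sex-linked and mitochondrially encoded genes), genes among the closest 50 in more than 1 plate, the 5 nearest over groups, and list members by size. Not all of these are printed, and some are not reported here. Each group is 1 sample, so no test was run. Alternatives changed the filters, the pseudocount, the scale, detection and rho limits, and the cells used. Scripts were tested on simulated data. Versions were SciPy 1.17.1, pandas 2.3.3, matplotlib 3.10.9, NumPy 2.4.6 and Python 3.11.15.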

Additional observations from a re-analysis of the deposited data

Results flagged for a closer look

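For Fabp5 the Mut minus WT difference was 2.71 in bulge cells and 0.60 in melanocytes and of the opposite sign, -0.080, in myeloid cells (mean log2 of scaled TPM plus 1). With 1 sample a group the difference between cell types was not tested. The myeloid value is close to 0: on the deposited TPM without scaling it was 0.0041, and 41.1% of WT and 43.1% of Mut myeloid cells detected the gene. Ucp2 was higher in Mut than in WT cells of all 3 types.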

How the results depend on the processing

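No paired analysis was possible because well positions in the labels name no shared animal and no test was run. Of 258 recomputed values 196 stayed close to the value reported, 61 moved and 1 reversed; a value is counted as moved past 1.5 times, or past 0.15 for a rho, or outside the interval for a share. Ucp2 and Fabp5 shares of cells moved in 1 case only: Fabp5 in the WT P56 bulge at a limit of 100 TPM (14.5%). The reversed value is Fabp5 in Mut minus WT P30 bulge, -0.56 with cells paired on genes detected. The cause was not tested for these changes beyond what each alternative's construction shows.

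Medians lay more than 1.5 times below means for Ucp2 at 2168 (WT P30 bulge), 0 (WT melanocytes) and 303 TPM (Mut melanocytes), and for Fabp5 at 125 (WT P30 bulge), 0 (WT P56 bulge), 837 (Mut bulge), 0 (WT melanocytes), 207 (Mut melanocytes), 0 (WT myeloid) and 0 (Mut myeloid). Without the 5 highest cells Ucp2 had 151 TPM in WT melanocytes, and Fabp5 had 24.7 in the WT P56 bulge, 145 and 288 in WT and Mut melanocytes and 77.9 and 59.4 in WT and Mut myeloid cells. Ucp2 in WT melanocytes was 193 over cells of that lineage. Without cell filters Fabp5 was 150 in the WT P56 bulge and 214 TPM in Mut myeloid cells.

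On log2(TPM + 1) the melanocyte difference of Ucp2 was 2.76, and with a pseudocount of 0.1 it was 1.70. For Fabp5 these scales gave 6.05 and 4.45 (Mut minus WT P56 bulge), 2.09 and 1.39 (Mut minus WT P30 bulge), -3.97 and -3.05 (WT P56 minus P30 bulge) and 2.27 and 1.39 (melanocytes). The melanocyte difference of Fabp5 was 0.17 with cells paired on genes detected, 0.30 in the plates' rows A to D and 0.93 in E to H.

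Genes at rho of 0.3 or beyond with Ucp2 numbered 237 (WT P30 bulge) and 65 (WT P56 bulge) where genes had to be in 50% of cells, and 219 in the WT P56 bulge without cell filters. With Fabp5 they numbered 309, 39 and 505 at the 50% limit in the WT P30, WT P56 and Mut bulge, 159 at a 10% limit, 137 without cell filters and 1246 over detecting cells in the WT P56 bulge, and 381 given genes detected in the Mut bulge. Ucp2 with Fabp5 in the Mut bulge had a Pearson's r of 0.26, and over cells with both genes a rho of -0.18 there, 0.55 in WT melanocytes and -0.21 in WT myeloid cells. List genes past a rho of 0.2 numbered 85 (WT P30 bulge) and 50 (WT P56 bulge), and past 0.4 they numbered 2 (WT P56 bulge) and 48 (Mut bulge). List genes past a difference of 0.25 and of 1 numbered 97 and 30 (Mut minus WT P56 bulge), 99 and 16 (Mut minus WT P30 bulge), 71 and 21 (WT P56 minus P30 bulge), 59 and 5 (melanocytes) and 33 and 5 (myeloid cells).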
